A study of Rattus norvegicus with 62 samples.

Results

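The constitutive proteasome subunits are the products of 34 genes, Psma1 to Psma7, Psmb1 to Psmb7, Psmc1 to Psmc6 and Psmd1 to Psmd14, that build the form of the proteasome found in every cell. A gene was taken where the array held a probe set carrying its symbol and no other, and the probe set with the highest mean signal stood for the gene. This gave 33 of the 34 genes, among 14217 genes in all. Psmb6 had no such probe set. The samples were livers of male Crj:CD(SD)IGS rats from a model of liver cancer in which an initiator is followed by a promoter. The initiator was diethylnitrosamine (DEN) at 3 or 30 mg/kg, thioacetamide (TAA) at 45 mg/kg, methapyrilene (MP) at 100 mg/kg, acetaminophen (APAP) at 1000 mg/kg or the vehicle methylcellulose (MC), given over 1 or 2 weeks. After 2 weeks without treatment, animals drank water with 500 ppm phenobarbital (PB) for 6 weeks, or plain water after MC in 1 control group. Each of the 31 animals gave 2 samples. The 5w sample came from a partial hepatectomy 1 week into promotion, and the 10w sample came at the end, so every 10w liver, controls included, was taken after that surgery. Groups are written as initiator and promoter (MC/water, MC/PB, DEN3/PB, DEN30/PB, TAA/PB, MP/PB and APAP/PB) and hold 4 or 5 animals each, which makes 14 groups and 62 arrays over the 2 weeks. The labels used here do not state the animals' ages.

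The proteasome degrades proteins that carry chains of ubiquitin. Its 20S core is a barrel of outer alpha rings (Psma genes), which gate the entrance, and inner beta rings (Psmb genes), which hold the proteolytic sites. Psmb5, Psmb6 and Psmb7 carry the catalytic residues. A regulatory particle caps the barrel. Its base holds a ring of ATPases (Psmc1 to Psmc6) that unfold the substrate, with the scaffold subunits Psmd1 and Psmd2 and the ubiquitin receptor Psmd4, and its lid (Psmd3, Psmd6, Psmd7, Psmd8, Psmd11, Psmd12, Psmd13 and Psmd14) removes the ubiquitin chain through the protease Psmd14. Psmd5, Psmd9 and Psmd10 are chaperones that hold ATPases during assembly of the base and leave before the particle is complete. The transcription factors Nfe2l1 and Nfe2l2 are known to raise transcription of the subunit genes through antioxidant response elements. In liver, phenobarbital is best known for inducing drug-metabolising enzymes through the receptor CAR and for enlarging hepatocytes.

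Signals are MAS5 intensities that the authors scaled, with a trimmed mean of 500.23 to 500.27 on every array and an array median between 99.3 and 125.7. All 33 genes had a signal of at least 100 on all 62 arrays, so each passed the filter for dim probe sets and none was kept through 1 group alone. The 4 hepatocyte markers with a probe set (Alb, Apoa1, Ttr and Serpina1) summed to between 138000 and 198000 in the MC/water and MC/PB livers of both weeks, with overlapping ranges. After group means were removed, the first component of the other genes held 11.8% of the variance and parted the arrays into sets of 30 and 32, with 2 or 3 arrays of every group in each. The labels name no batch, so these are called array sets here. The sets followed the replicate number and the animal: numbers 1 and 3 lay in the first set and 2 and 4 in the second in all 14 groups, the 6 arrays of number 5 were split 2 and 4, and both arrays of each of the 31 animals lay in 1 set. A block for the animal or the replicate number therefore removes most or all of the set difference too. The proteasome genes as a whole did not lie to one side: 15 of 33 were higher in the first set, with a median difference of -0.01 on the log2 scale. Psmd11 (0.32) and Psmd4 (0.28) differed most between the sets.

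Promoters of the genes on which the results below turn are shown first, since elements of this kind are where Nfe2l1 and Nfe2l2 are known to act. Of the 4 windows shown, only that of Psmd9 holds a match. Each window runs from 250 bases before to 50 bases after the RefSeq start on assembly GRCr8, is written 5′ to 3′ in the direction of transcription, and has in capitals any match to the core of the antioxidant response element, TGACNNNGC, on either strand.
Psmd9 promoter, chr12:39018215-39018514, strand -: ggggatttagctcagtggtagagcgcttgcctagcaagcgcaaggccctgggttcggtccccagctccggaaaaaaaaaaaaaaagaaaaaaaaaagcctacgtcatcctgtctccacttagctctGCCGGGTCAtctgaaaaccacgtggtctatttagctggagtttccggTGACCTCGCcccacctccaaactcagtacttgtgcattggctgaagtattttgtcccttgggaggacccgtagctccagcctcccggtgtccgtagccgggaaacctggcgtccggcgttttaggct
Psmd5 promoter, chr3:38548441-38548740, strand -: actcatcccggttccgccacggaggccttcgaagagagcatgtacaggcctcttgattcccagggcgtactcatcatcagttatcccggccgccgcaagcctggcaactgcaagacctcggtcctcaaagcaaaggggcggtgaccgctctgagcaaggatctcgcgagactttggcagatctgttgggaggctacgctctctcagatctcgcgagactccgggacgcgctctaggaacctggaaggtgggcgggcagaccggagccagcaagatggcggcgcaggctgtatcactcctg
Psma6 promoter, chr6:78514097-78514396, strand +: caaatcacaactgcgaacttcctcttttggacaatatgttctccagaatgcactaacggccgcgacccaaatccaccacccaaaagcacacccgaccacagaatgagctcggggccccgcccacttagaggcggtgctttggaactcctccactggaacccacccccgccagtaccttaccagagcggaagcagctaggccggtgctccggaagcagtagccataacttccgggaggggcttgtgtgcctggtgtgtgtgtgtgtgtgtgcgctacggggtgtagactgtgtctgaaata
Psmd8 promoter, chr1:93608640-93608939, strand -: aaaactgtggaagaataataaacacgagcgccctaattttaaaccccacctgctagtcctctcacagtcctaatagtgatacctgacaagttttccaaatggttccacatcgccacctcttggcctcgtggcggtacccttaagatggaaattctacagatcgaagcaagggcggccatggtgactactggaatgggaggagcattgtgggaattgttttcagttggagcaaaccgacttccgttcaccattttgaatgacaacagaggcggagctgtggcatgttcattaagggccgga
Windows were found for 30 of the 34 genes, Psmb6 included. Of these, 7 held a match (23.3%), against 12.1% of all 33469 windows of the table. They were Psma3, Psmb2, Psmb5, Psmb6, Psmd1, Psmd3 and Psmd9. Psmd9 held 2 matches, GCCGGGTCA and TGACCTCGC, and Psmd1 also held 2. A match is a description of these letters and not a measured binding site.

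The effect of the promoter was read from MC/PB against MC/water, 4 animals each. At 10w, proteasome transcripts were higher in phenobarbital-treated livers almost throughout the particle, by small amounts. Of 33 genes, 2 passed an adjusted p of 0.05, both higher in MC/PB. They were Psmd9 (1.46-fold) and Psmd5 (1.34-fold), each a chaperone of base assembly. The fit was limma with Benjamini-Hochberg adjustment over all genes tested, of which 2.26% passed at 10w and 1.59% passed as higher. Differences are on the scale of log2(signal + 25), and folds are taken from them. The difference was above 0 for 32 of the 33 genes with a median of 0.18, where 48% of all 10538 genes tested were above 0 and their median was -0.01. An unadjusted p under 0.05 with a higher level was reached by 14 of 33, against 7.5% of all genes, and groups that did not overlap, with MC/PB higher, were seen in 11 of 33, against 5.08%.

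At 5w, after 1 week of phenobarbital, the pattern was fainter. Psmd9 was 1.36-fold higher in MC/PB. It was the 1 gene of 33 to pass, against 1.25% of 10488 genes tested and 0.83% passing as higher. The difference was above 0 for 28 of 33 genes with a median of 0.08, against 49.3% of all genes. An unadjusted p under 0.05 with a higher level was reached by 4 of 33, against 5.84%. Groups did not overlap in 5 of 33 (Psma1, Psma3, Psma4, Psmd2 and Psmd9), with MC/PB higher in each, against 3.54% of all genes. No gene passed in the test of whether the phenobarbital effect differed between the weeks (0 of 33, 0% of all genes, limma on all 62 arrays), with 1 of 33 at an unadjusted p under 0.05. That gene was Psmd5, with a difference between the effects of 0.36 ± 0.14 (SE, adjusted p = 1). The share of all genes at an unadjusted p under 0.05 in this test is not given here. The median difference between the effects was 0.10, and 30 of 33 were above 0, against 48.9% of all genes. Within the array sets it was 0.14 and 0.07, with 28 and 20 of 33 above 0.

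**Figure D1:**
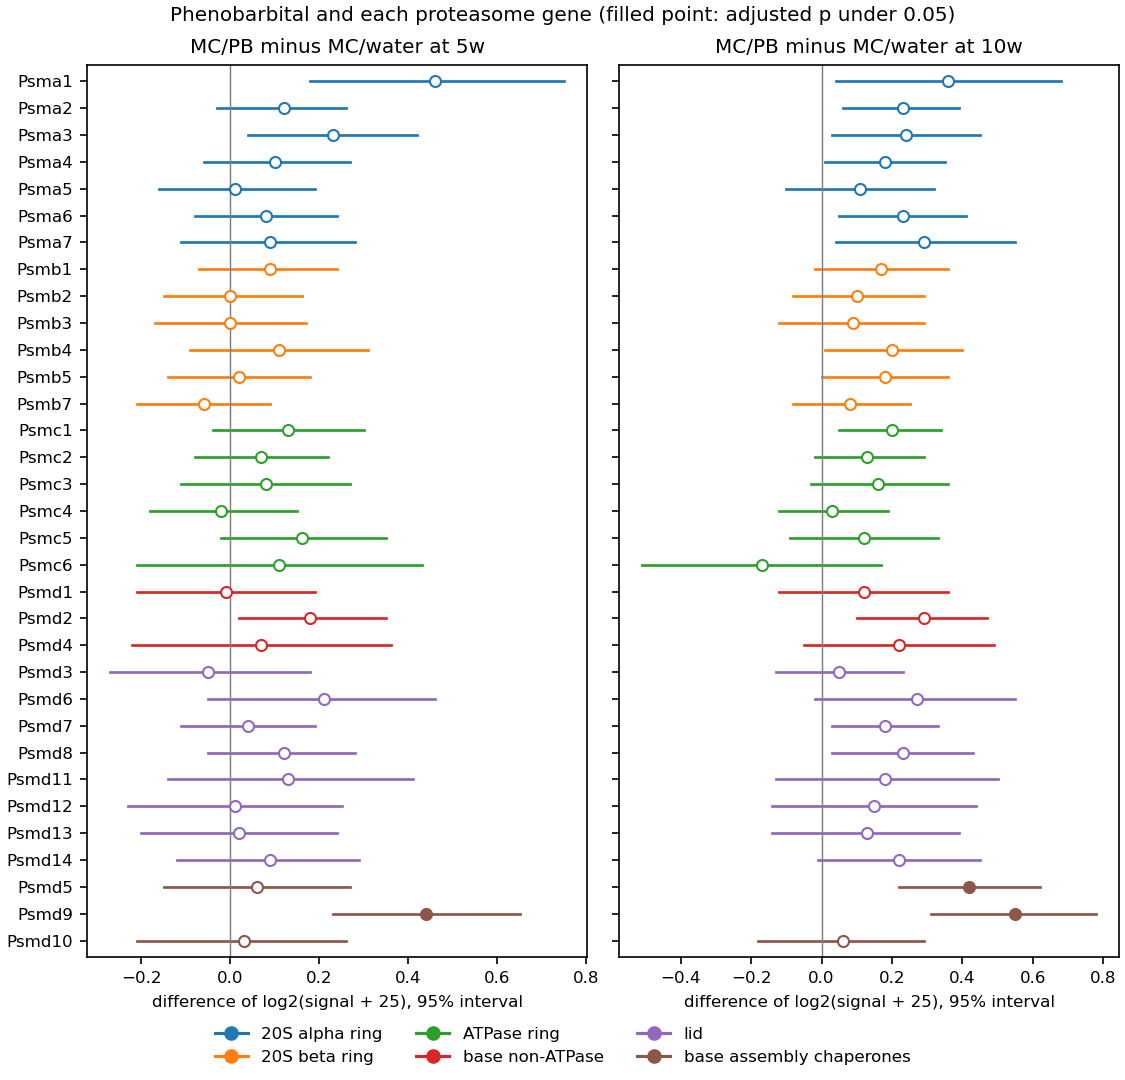
Difference between MC/PB and MC/water in log2(signal + 25) for each of the 33 genes (points, with 95% intervals from the fit, 4 animals per group), at 5w on the left and 10w on the right, coloured by structural class. Filled points passed an adjusted p of 0.05: Psmd9 at both weeks and Psmd5 at 10w. At 10w every point but Psmc6 (-0.17) lies to the right of 0.

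Psmd9, a PDZ-domain chaperone that binds the ATPases Psmc3 and Psmc6 during assembly, gave the clearest separation. At 5w its signals were 1530, 1232, 1222 and 1205 in MC/water and 1749, 1978, 1626 and 1713 in MC/PB. At 10w they were 953, 1198, 1166 and 1042 in MC/water and 1395, 1586, 1808 and 1632 in MC/PB. The lowest phenobarbital animal thus lay above the highest water animal at each week. The difference was 0.44 ± 0.10 (SE, adjusted p = 0.0199) at 5w and 0.55 ± 0.11 (SE, adjusted p = 0.00586) at 10w. The call at 10w held without any 1 of the 8 animals, whereas the call at 5w was lost when MC/water animal 2, 3 or 4 or MC/PB animal 1 or 2 was left out, with adjusted p up to 0.0966, and when only the 2 groups were fitted (0.11). A second, dim probe set for Psmd9 with a mean signal of 151 gave differences of 0.34 ± 0.27 at 5w and 0.30 ± 0.25 at 10w. Within the 2 array sets the difference was 0.30 and 0.59 at 5w and 0.58 and 0.52 at 10w. None of these passed on so few arrays. Between the weeks the mean change of Psmd9 was -0.25 in MC/water and -0.14 in MC/PB.

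Psmd5, which binds the ATPase Psmc2 during assembly of the base, differed at the later week. Its 10w signals were 1686, 1533, 1826 and 1713 in MC/water and 2216, 2346, 2284 and 2222 in MC/PB, with no overlap. The difference was 0.42 ± 0.10 (SE, adjusted p = 0.0174). It did not pass without MC/water animal 2 (adjusted p = 0.0788) or without MC/PB animal 2 (0.0571), and it was 0.35 and 0.49 within the array sets. At 5w the groups overlapped, with 2360, 1933, 2094 and 2027 in MC/water against 2107, 2121, 2123 and 2428 in MC/PB. The 5w difference was 0.06 ± 0.10 (SE, adjusted p = 0.919). Between the weeks the mean change of Psmd5 was -0.31 in MC/water and 0.05 in MC/PB. The gap at 10w thus went with a lower level in MC/water more than with a rise in MC/PB. Psmd10, the third chaperone of the base and also known as the liver oncoprotein gankyrin, showed 0.03 ± 0.11 at 5w and 0.06 ± 0.11 (SE, adjusted p = 0.901) at 10w, with a 95% interval of -0.18 to 0.29 at 10w.

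**Figure D2:**
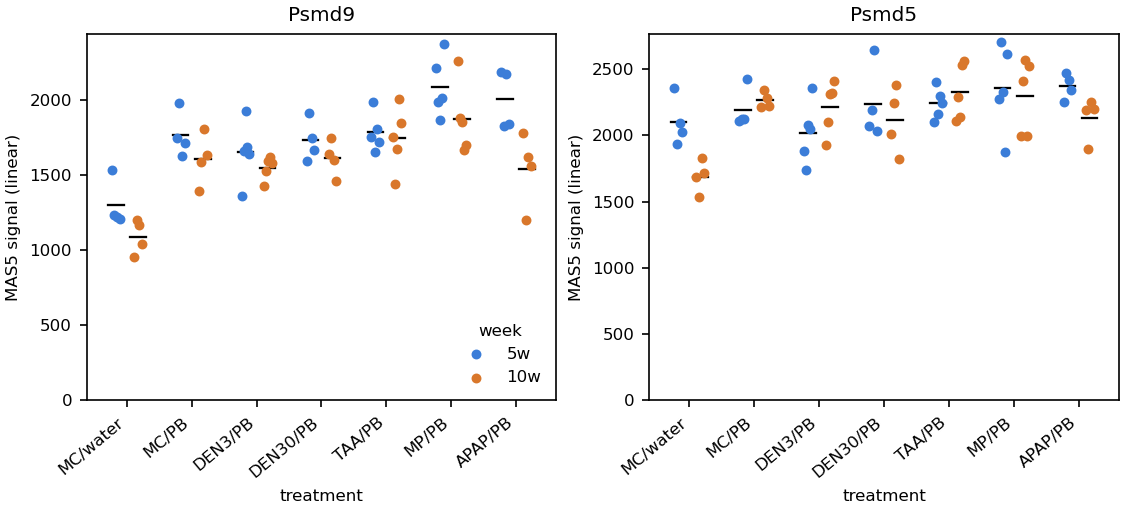
MAS5 signal (linear scale from 0) of Psmd9 and Psmd5 on each array, by treatment, at 5w (blue) and 10w (orange), with a line at each group mean. The MC/water points of Psmd9 lie below the MC/PB points at both weeks, and those of Psmd5 do so at 10w (1533 to 1826 against 2216 to 2346).

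Subunits of the mature particle showed smaller differences at 10w, and none of these 30 genes passed (limma, 12 at an unadjusted p under 0.05, all higher in MC/PB). In the alpha ring all 7 genes were higher, with a median of 0.23 and a range of 0.11 to 0.36. Psma2 read 3870, 3784, 4143 and 3773 in MC/water and 4480, 4445, 4757 and 4532 in MC/PB, a difference of 0.23 ± 0.08 (SE, adjusted p = 0.172) without overlap. Psma6 read 8609, 10421, 9240 and 10279 against 10417, 12139, 10786 and 11783, a difference of 0.23 ± 0.09 (SE, adjusted p = 0.206) with the groups meeting at a single pair of animals. Psma1 had the greatest difference of the ring, 0.36 ± 0.16, on groups that overlapped.

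In the beta ring all 6 measured genes were higher, with a median of 0.14 and a range of 0.08 to 0.20. Psmb5, the subunit with chymotrypsin-like activity and the main target of proteasome inhibitors used as drugs, read 5308, 5452, 5119 and 5623 in MC/water and 5659, 6132, 6385 and 6209 in MC/PB. Its difference was 0.18 ± 0.09 (SE, adjusted p = 0.353), and the groups did not overlap. Psmb4, a non-catalytic subunit, read 7580, 9315, 7702 and 8389 against 9458, 9761, 9197 and 9467, a difference of 0.20 ± 0.10 (SE, adjusted p = 0.331). Psmb7, with trypsin-like activity, showed 0.08 ± 0.08.

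In the ATPase ring 5 of 6 genes were higher, with a median of 0.13. Psmc1 read 1964, 2010, 2154 and 1938 in MC/water and 2345, 2316, 2238 and 2350 in MC/PB, a difference of 0.20 ± 0.07 (SE, adjusted p = 0.175) without overlap. Psmc2, the ATPase that Psmd5 binds, read 7467, 7339, 7843 and 8041 against 8113, 8756, 7980 and 8866, a difference of 0.13 ± 0.08 (SE, adjusted p = 0.445). Psmc6 was the only gene of the 33 below 0 at 10w, at -0.17 ± 0.17 (SE, adjusted p = 0.73). Its signals spread widely, from 2320 to 3732 in MC/water and from 2224 to 3103 in MC/PB, and its other 2 probe sets also read below 0 (-0.08 ± 0.13 and -0.12 ± 0.12).

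All 3 non-ATPase subunits of the base were higher, with a median of 0.22. Psmd2, a scaffold on which shuttle proteins dock, read 3010, 2778, 2838 and 2647 in MC/water and 3451, 3655, 3217 and 3437 in MC/PB. Its difference of 0.29 ± 0.09 (SE, adjusted p = 0.103) came from groups that did not overlap. Psmd4 read 1441, 1267, 1462 and 1298 against 1939, 1534, 1577 and 1365, a difference of 0.22 ± 0.13 (SE, adjusted p = 0.494) on overlapping groups. All 8 lid genes were higher, with a median of 0.18 and a range of 0.05 to 0.27. Psmd7, the inactive partner of the deubiquitinase Psmd14, read 2625, 2537, 2679 and 2659 against 3404, 3015, 2764 and 2787, a difference of 0.18 ± 0.07 (SE, adjusted p = 0.236). Psmd8 read 4037, 3602, 3748 and 3913 against 4536, 4650, 4319 and 4418, a difference of 0.23 ± 0.10 (SE, adjusted p = 0.277). Neither of these lid genes overlapped between the groups. Psmd14 showed 0.22 ± 0.11, and its other 2 probe sets 0.43 ± 0.14 and, on a dim one, 0.14 ± 0.16.

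The median over the 33 genes was 0.17 within each array set at 10w (32 and 31 genes above 0). At 5w it was 0.04 and 0.11 within the sets (20 and 29 genes above 0). No gene passed within either set, where a group holds 2 or 3 arrays.

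Other genes of the pathway were taken from a list of 37, of which 29 had a probe set. At 10w 0 of 29 passed for phenobarbital (limma), 23 were higher and the median was 0.13. An unadjusted p under 0.05 was reached by 7 of 29, against 14% of all genes, and 5 of the 7 were higher and 2 lower. Those with the smallest p were 2 chaperones of core assembly and both subunits of the PA28 activator. Psmg3 read 600, 457, 496 and 451 in MC/water and 605, 646, 993 and 941 in MC/PB, a difference of 0.62 ± 0.19 (SE, adjusted p = 0.0774). Psmg2 read 821, 915, 886 and 980 against 1107, 1385, 1302 and 1165, a difference of 0.45 ± 0.16 (SE, adjusted p = 0.163). Psme2 showed 0.32 ± 0.11 (SE, adjusted p = 0.142) and Psme1 0.24 ± 0.09 (SE, adjusted p = 0.178). The groups did not overlap for any of these 4 genes. The inducible catalytic subunits of the immunoproteasome, Psmb8, Psmb9 and Psmb10, stood at 0.09, -0.09 and 0.02. Of the 4 regulators, the transcription factors Nfe2l1 and Nfe2l2 both showed 0.17 ± 0.17, while the protease Ddi2 and the deglycosylase Ngly1, which process Nfe2l1, were the 2 lower genes at an unadjusted p under 0.05. Ddi2 read 1866, 1846, 1643 and 1932 in MC/water and 1488, 1505, 1498 and 1372 in MC/PB, a difference of -0.31 ± 0.13 (SE, adjusted p = 0.246) without overlap. Ngly1 showed -0.30 ± 0.13 (SE, adjusted p = 0.273) on overlapping groups. At 5w 0 of 29 passed (1 at an unadjusted p under 0.05, against 10.9% of all genes), 17 were higher and the median was 0.05.

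The RNA came from whole liver, so fewer cells of a type and less RNA per cell cannot be told apart. Of the markers of other cell types, Epcam, a surface protein of bile duct and progenitor cells, rose with phenobarbital, by 0.80 ± 0.15 (SE, adjusted p = 0.00327) at 5w and 1.26 ± 0.24 (SE, adjusted p = 0.00247) at 10w. The 3 bile duct markers with a probe set summed to 600 to 1000 in MC/water and 1310 to 2100 in MC/PB at 10w, and to 636 to 796 and 988 to 1400 at 5w. One of the 3 stayed under 100 on every array of these groups. Krt19, of the same list, showed -0.27 ± 0.24 at 10w. Summed Kupffer cell markers at 10w lay between 6340 and 8890 in MC/water and between 5260 and 8030 in MC/PB. The summed markers of endothelial cells (3 of 4 with a probe set) at 10w lay between 4120 and 5240 in MC/water and between 3190 and 4350 in MC/PB. Those of stellate cells (5 of 5) lay between 1360 and 1400 and between 1310 and 1520, those of lymphocytes (4 of 5) between 513 and 790 and between 442 and 695, and those of the cell cycle (4 of 4) between 262 and 1270 and between 444 and 943. Apart from Epcam no marker passed for phenobarbital at either week. The part of these cells in the proteasome differences was not tested.

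The effect of each initiator was read against MC/PB, so all 5 contrasts of a week share the same 4 control animals and their shared direction is not independent. None of the 33 genes passed in any of these 10 contrasts (limma). DEN at 3 mg/kg gave medians of 0.00 at 5w and 0.02 at 10w, with 17 and 19 genes above 0 (50.1% and 55.3% of all genes). After adjustment 0.0381% and 0.019% of all genes passed. No proteasome gene had an unadjusted p under 0.05 in either week. DEN at 30 mg/kg gave medians of 0.05 and 0.06, with 26 and 28 above 0 (53.1% and 54.1% of all genes). After adjustment 0.114% and 0.0285% of all genes passed. Again no proteasome gene had an unadjusted p under 0.05. TAA gave 0.04 and 0.05, with 28 and 26 above 0 (51% of all genes at each week), while 0.0191% and 0.00949% of all genes passed. At an unadjusted p under 0.05 TAA had 1 gene at 5w, which was higher (3.39% of all genes for that direction), and 0 at 10w. The shares of all genes at an unadjusted p under 0.05 are not given here for DEN or for TAA at 10w. Within the 2 array sets, the TAA median at 5w was 0.16 and -0.01.

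MP and APAP, 2 drugs that injure the liver at high doses, gave the highest medians. For MP the median was 0.09 at 5w and 0.13 at 10w, with 29 and 31 of 33 genes above 0 (52.4% and 50.7% of all genes), while 0.0572% and 0.0854% of all genes passed. At 10w, 10 genes had an unadjusted p under 0.05, all higher, against 3.97% of all genes for that direction, and in 7 the groups did not overlap, against 1.23%. The beta subunits Psmb7 (0.21 ± 0.08, SE, adjusted p = 0.493) and Psmb3 (0.26 ± 0.10, SE, adjusted p = 0.493) had the smallest p of these. At 5w, 4 genes had an unadjusted p under 0.05, all higher, against 4.35%. For APAP the median was 0.14 at 5w, with 30 of 33 above 0 (49.6% of all genes) and 9 at an unadjusted p under 0.05, all higher, against 3.59% of all genes for that direction. The smallest p belonged to Psmb2 (0.25 ± 0.07, SE, adjusted p = 0.288). No gene of the whole table passed for APAP at 5w (0%). At 10w the APAP median was 0.08 with 29 above 0 (53% of all genes). There 2 genes had an unadjusted p under 0.05 and were higher, against 3.25%, and 0.0664% of all genes passed. The APAP median moved with the array set, from 0.16 in the first to 0.01 in the second at 10w, and from 0.21 to 0.08 at 5w. Without APAP/PB animal 2 it was 0.13 at 10w.

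Markers of other cells also stood apart in some of these contrasts, although none passed (limma). In APAP at 5w all 4 cell cycle markers were higher with a median of 0.61, 3 of them at an unadjusted p under 0.05, and their summed signal lay between 880 and 1340 in APAP/PB against 610 to 980 in MC/PB. In MP at 5w the bile duct markers Epcam (0.52 ± 0.14) and Krt19 (0.70 ± 0.30) were both higher at an unadjusted p under 0.05, and the summed bile duct signal was 1610 to 1960 in MP/PB against 988 to 1400 in MC/PB. In MP at 10w the bile duct sum overlapped that of MC/PB (1300 to 2040 against 1310 to 2100). All 4 hepatocyte markers were higher for TAA, MP and APAP at both weeks. The medians were 0.18 and 0.20 for TAA, 0.09 and 0.17 for MP, and 0.14 and 0.04 for APAP. In DEN30 at 10w all 4 cell cycle markers were higher with a median of 0.84. In MP at 5w all 4 were lower with a median of -0.27, 1 of them at an unadjusted p under 0.05. The 2 lymphocyte markers tested were lower at 5w for TAA, MP and APAP, with medians of -0.32, -0.34 and -0.53. The part of these cells in the proteasome values was not tested.

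Ordering the 7 groups of a week by their mean put MC/water at the bottom. It had the lowest mean for 23 of 33 genes at 5w, against 21.4% of all genes, and for 32 of 33 at 10w, against 24.2%. The top place went to APAP/PB at 5w for 17 of 33 genes (12.5% of all genes) and to MP/PB at 10w for 23 of 33 (13.7% of all genes). Psmd9 had its highest group mean at 5w in MP/PB, where the signals were 2212, 1988, 1863, 2009 and 2369, and its lowest in MC/water. These places are a description, with no test.

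**Figure D3:**
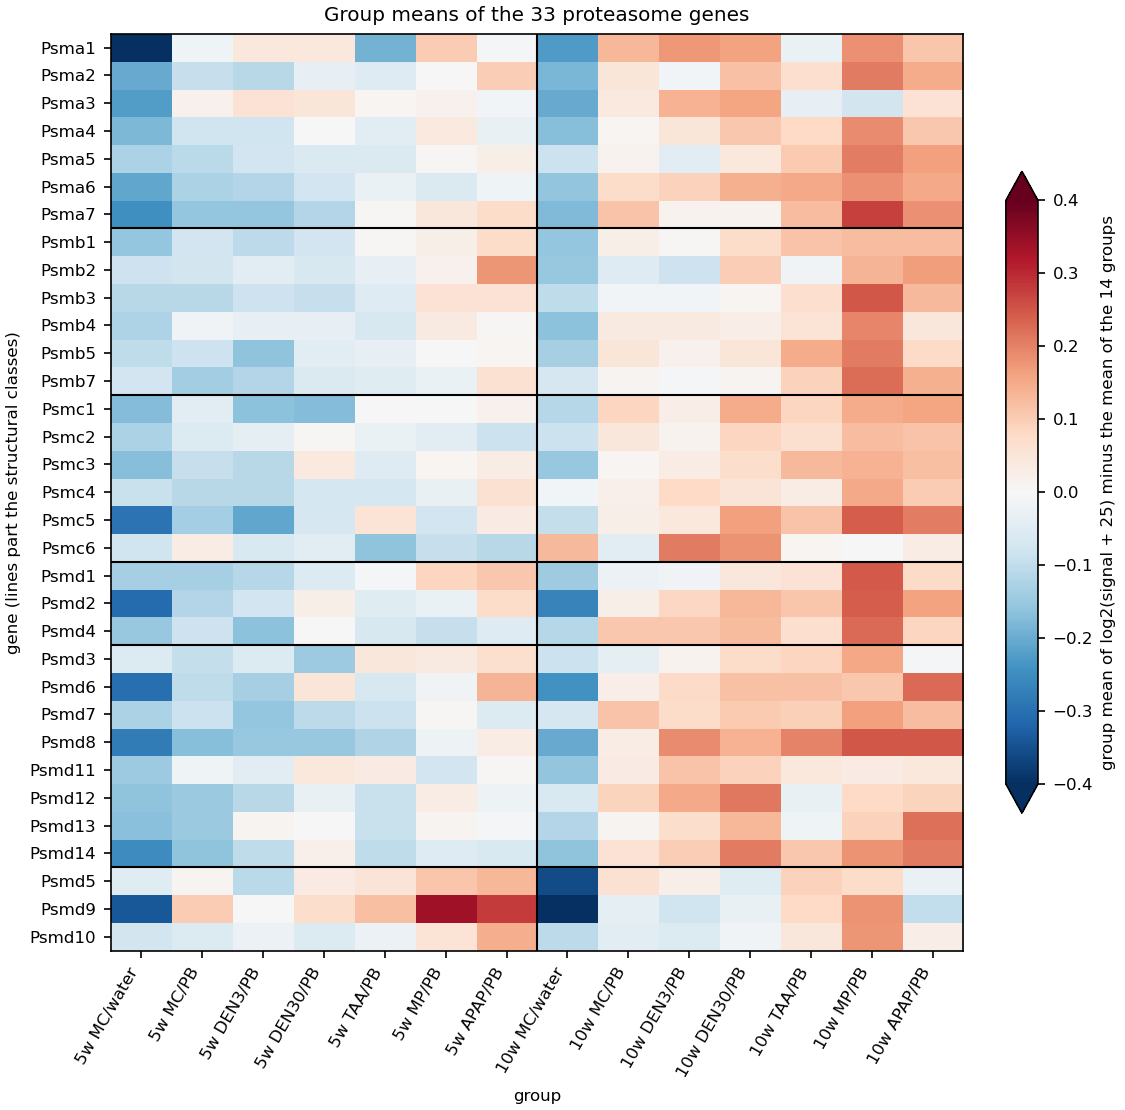
Group means of log2(signal + 25) for each of the 33 genes, less the mean of the 14 groups, with genes in rows by structural class and groups in columns, 5w left of the vertical line and 10w right. The colour scale ends at ±0.4. The MC/water columns are the bluest of each week, and MP/PB at 10w holds the highest mean of its week for 23 of 33 genes.

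The level of the set on each array was summarised as the median over the 33 genes of log2(signal + 25) less each gene's mean over the 62 arrays. In MC/water it was -0.15, -0.17, -0.16 and -0.21 at 5w and -0.15, -0.15, -0.16 and -0.12 at 10w. In MC/PB it was -0.09, -0.05, -0.13 and -0.07 at 5w and 0.03, 0.08, 0.00 and 0.02 at 10w. All 27 arrays of the 6 phenobarbital groups lay above all 4 water arrays at each week, although at 5w the nearest pair both rounded to -0.15. Group means ran from -0.17 in MC/water to 0.05 ± 0.05 (SD, n = 4) in APAP/PB at 5w. At 10w they ran from -0.14 in MC/water to 0.16 ± 0.06 (SD, n = 5) in MP/PB. The 10w phenobarbital groups overlapped: the range was 0.00 to 0.08 in MC/PB, 0.01 to 0.13 in DEN3/PB, -0.01 to 0.18 in DEN30/PB, -0.04 to 0.16 in TAA/PB, 0.07 to 0.24 in MP/PB and -0.06 to 0.18 in APAP/PB.

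**Figure D4:**
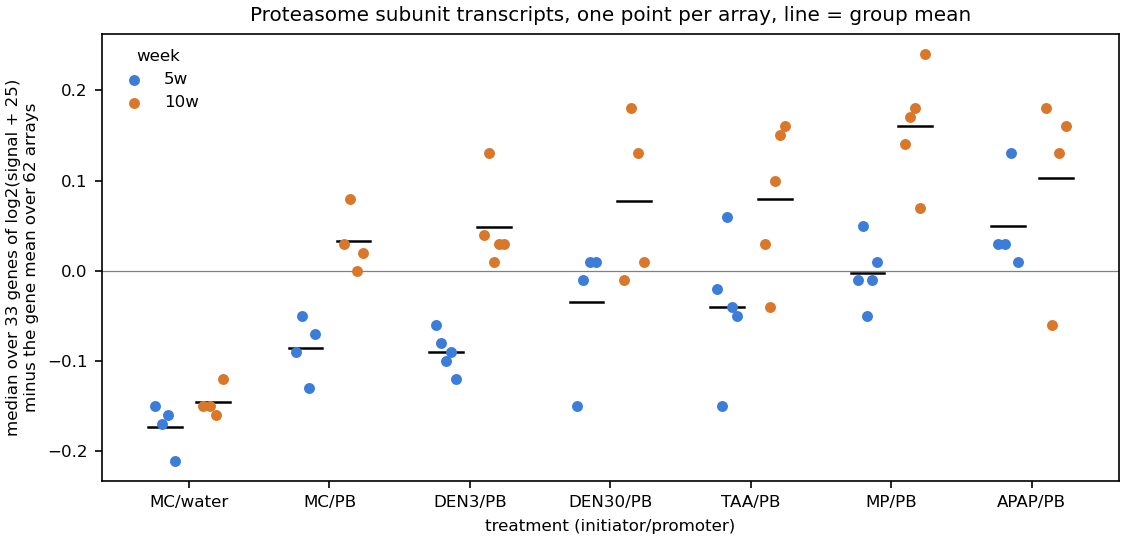
Median over the 33 proteasome genes of log2(signal + 25) less each gene's mean over 62 arrays, 1 point per array by treatment, 5w in blue and 10w in orange, with a line at each group mean. Water animals lie between -0.21 and -0.12 at both weeks, and phenobarbital groups lie higher at 10w than at 5w on average.

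The change between the weeks was read within each treatment. It spans 5 further weeks of phenobarbital (none in MC/water), the time since hepatectomy and the animals' ageing, which cannot be told apart. Since both samples of a pair came from 1 animal, the change is given with and without the animal as a block. In MC/water livers the median change was small, at 0.03, with 24 of 33 genes above 0, against 50.7% of all genes. In each of the 4 animals 18 to 23 genes were higher at 10w. In the phenobarbital groups the median lay between 0.09 and 0.16, with 27 to 31 of 33 genes above 0. The share of all genes above 0 was 48.8% in MC/PB, 52.5% in DEN3/PB, 50.7% in DEN30/PB, 48.6% in TAA/PB, 48.3% in MP/PB and 52.2% in APAP/PB. In TAA/PB the median was 0.12, and within the array sets it was 0.06 and 0.17 with 21 and 32 of 33 genes above 0. In APAP/PB it was 0.09, with 25 and 22 genes above 0 within the sets, and it was 0.14 without animal 3 at 5w. By animal, 22 to 29 genes were higher at 10w in MC/PB, 24 to 30 in DEN3/PB, 16 to 32 in DEN30/PB, 19 to 32 in TAA/PB, 24 to 31 in MP/PB and 15 to 29 in APAP/PB.

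**Figure D5:**
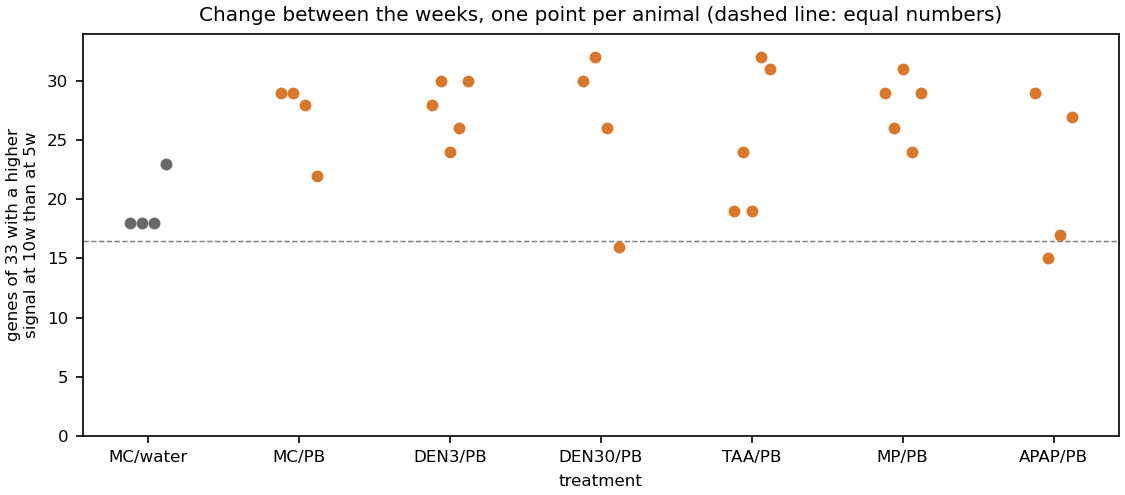
Number of the 33 genes with a higher signal at 10w than at 5w in each of the 31 animals, by treatment (MC/water in grey, phenobarbital groups in orange). The dashed line marks equal numbers of higher and lower genes. The water animals lie at 18, 18, 18 and 23, and the phenobarbital animals range from 15 to 32.

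An unadjusted p under 0.05 with a higher level at 10w was reached by 6 of 33 genes in MC/PB (6.34% of all genes), 11 in DEN3/PB (8.27%), 7 in DEN30/PB (4.06%), 8 in TAA/PB (6.11%), 17 in MP/PB (5.45%) and 5 in APAP/PB (6.76%), and by 1 in MC/water (3.66%). After adjustment few genes passed without the block. In DEN3/PB 2 of 33 rose (2.89% of all genes passed, 1.72% as higher), both in the lid. Psmd8 read 4353, 3844, 3705, 4003 and 3901 at 5w and 5166, 5273, 4642, 4631 and 5381 at 10w, a difference of 0.34 ± 0.08 (SE, adjusted p = 0.00712) that held without any 1 of the 10 arrays. Psmd7 read 2627, 2339, 2247, 2683 and 2430 at 5w and 2779, 3251, 2918, 2734 and 2777 at 10w, a difference of 0.23 ± 0.06 (SE, adjusted p = 0.0241). The Psmd7 call was lost without animal 2, 3 or 5 at 5w or animal 2 or 3 at 10w (adjusted p up to 0.118) and when only the 2 groups were fitted (0.159). Both genes were higher at 10w in 5 of 5 animals.

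In TAA/PB 1 of 33 rose (1.77% of all genes passed, 0.963% as higher). This was Psmd8 again, from 4893, 3724, 3896, 3784 and 3996 to 4998, 4560, 5197, 5347 and 5200, a difference of 0.32 ± 0.08 (SE, adjusted p = 0.0174). Animal 1 at 5w lay within the 10w range, and the call was lost without animal 2 or 4 at 5w or animal 3 or 4 at 10w (adjusted p up to 0.0662).

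In MP/PB 3 of 33 rose (1.34% of all genes passed, 0.651% as higher), each from another part of the particle. Psmb7, a catalytic subunit, read 4060, 4064, 4476, 4506 and 4482 at 5w and 5103, 5176, 5810, 4809 and 4851 at 10w, a difference of 0.25 ± 0.06 (SE, adjusted p = 0.0336). Psmc5, an ATPase, read 2168, 2070, 1997, 1960 and 1988 at 5w and 2703, 2408, 2573, 2467 and 2582 at 10w, a difference of 0.32 ± 0.08 (SE, adjusted p = 0.0407). Neither overlapped between the weeks. Psmd2 read 3101, 3947, 3214, 2910 and 3524 against 3969, 4339, 4142, 3633 and 4077, a difference of 0.28 ± 0.08 (SE, adjusted p = 0.0486) with 1 animal's 5w signal inside the 10w range. All 3 genes were higher at 10w in 5 of 5 animals. The calls were near the threshold. That of Psmb7 was lost without animal 1 or 2 at 5w or animal 2 or 3 at 10w (adjusted p up to 0.14). That of Psmc5 was lost without any 1 of the 10 arrays but animal 1 at 5w (up to 0.0911), and that of Psmd2 without any but animal 2 at 5w and animal 4 at 10w (up to 0.177).

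In APAP/PB 1 of 33 passed (1.47% of all genes), and it fell. Psmd9 read 2183, 1827, 2174 and 1839 at 5w and 1779, 1197, 1620 and 1562 at 10w without overlap, a difference of -0.39 ± 0.11 (SE, adjusted p = 0.0474), and it was lower in 4 of 4 animals. The call was lost without animal 1, 3 or 4 at 5w or animal 2, 3 or 4 at 10w (adjusted p up to 0.322, without animal 2 at 10w), and the dim second probe set moved the other way (0.37 ± 0.26). No gene passed in MC/water (0 of 33, 0.0459% of all genes), MC/PB (0 of 33, 1.31%) or DEN30/PB (0 of 33, 0%). In these groups 3, 6 and 7 genes had an unadjusted p under 0.05, both directions counted. The share of all genes at that cut for both directions is not given here. Of the cell type markers, the endothelial receptor Kdr fell between the weeks in MC/PB (-0.42 ± 0.09, SE, adjusted p = 0.0114), DEN3/PB, TAA/PB, MP/PB and APAP/PB, and showed -0.33 ± 0.09 (SE, adjusted p = 0.164) in MC/water. The summed endothelial markers lay between 5570 and 6010 at 5w and between 4120 and 5240 at 10w in MC/water, and between 4870 and 5560 and between 3190 and 4350 in MC/PB. No other marker passed between the weeks, and the part of endothelial cells in the proteasome changes was not tested. None of the 29 other pathway genes passed in any of the 7 treatments (limma, 2 to 4 at an unadjusted p under 0.05 in each). That count too has no share of all genes beside it here, so it is not read as more than the whole table shows.

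With the animal as a block, which removes the spread between animals, more genes passed, and so did more genes of the whole table. The counts were 1 of 33 in MC/PB (6.08% of all genes), 7 in DEN3/PB (10.6%), 2 in DEN30/PB (2.14%), 5 in TAA/PB (7.2%), 12 in MP/PB (6.47%) and 4 in APAP/PB (7.28%), all of them higher at 10w but Psmd9 in APAP/PB. The shares of all genes passing as higher were 3.6%, 5.96%, 1.01%, 3.7%, 3.23% and 3.91%. MC/water had 1 of 33 (1.32% of all genes), which was lower (0.67% as lower).

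Psma6, an alpha ring subunit, rose in 6 of 6 phenobarbital groups in the fit with the animal block. It was picked from the 33 genes for this count. The share of all genes that rose in 6 of 6 groups is not given here. Its signals went from 9123, 10842, 9267 and 9938 to 10417, 12139, 10786 and 11783 in MC/PB, and every one of the 27 phenobarbital animals had a higher signal at 10w. The change was 0.20 ± 0.05 (SE, adjusted p = 0.00934) in MC/PB, 0.21 ± 0.04 (SE, adjusted p = 0.00195) in DEN3/PB, 0.23 ± 0.05 (SE, adjusted p = 0.0107) in DEN30/PB and 0.18 ± 0.04 (SE, adjusted p = 0.00795) in TAA/PB. It was 0.24 ± 0.04 (SE, adjusted p = 0.000818) in MP/PB and 0.17 ± 0.05 (SE, adjusted p = 0.0319) in APAP/PB. In MC/water, where 3 of 4 animals were higher, it was 0.05 ± 0.05 (SE, adjusted p = 0.714). The test of the difference between MC/PB and MC/water in this change gave 0.15 ± 0.07 (SE, adjusted p = 0.499), so the change was not shown to differ between them. No gene of the 33 passed that test with the animal block (0.119% of all genes did).

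Psmd8 rose in 3 phenobarbital groups with the block (DEN3/PB, TAA/PB and MP/PB), and the deubiquitinase Psmd14 in 3 (TAA/PB, MP/PB and APAP/PB). Both were picked for this count, and the share of all genes that rose in 3 groups is not given here. The MP/PB calls covered 3 alpha, 3 beta, 2 ATPase, 2 base and 2 lid genes, among them the catalytic subunits Psmb5 (0.21 ± 0.06, SE, adjusted p = 0.03) and Psmb7 (0.25 ± 0.05, SE, adjusted p = 0.00245). In DEN3/PB they covered 1 alpha, 3 ATPase, 1 base and 2 lid genes. The chaperones of the base are given apart. In MC/water Psmd5 fell from 2360, 1933, 2094 and 2027 to 1686, 1533, 1826 and 1713, a change of -0.31 ± 0.07 (SE, adjusted p = 0.0126) that was lower in 4 of 4 animals, and without the block its adjusted p was 0.245. Psmd9 in MC/water showed -0.25 ± 0.10 (SE, adjusted p = 0.251), also lower in 4 of 4 animals. In MC/PB neither chaperone passed (Psmd5 0.05 ± 0.07, Psmd9 -0.14 ± 0.10). The difference in the change of Psmd5 between MC/PB and MC/water was 0.36 ± 0.09 (SE, adjusted p = 0.166) with the block.

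The initiator effects were also compared between the weeks. None of the 33 genes passed for DEN at 3 mg/kg, DEN at 30 mg/kg, TAA, MP or APAP (limma, 0% of all genes in each). At an unadjusted p under 0.05 there were 0 of 33, and the share of all genes at that cut is not given here. The medians were 0.02, 0.00, -0.01, 0.06 and -0.04.

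Within groups, arrays with more of one subunit transcript tended to have more of the others. Over the 62 arrays, after group means were removed, the median correlation of 528 pairs was 0.20, against 0.00 over all pairs of genes. It was 0.37 within the beta ring, 0.24 within the alpha ring, 0.24 within the ATPase ring and 0.18 within the lid. The alpha ring gave 0.29 with the ATPase ring, 0.26 with the lid and 0.19 with the beta ring. The beta ring gave 0.20 with the ATPase ring and 0.05 with the lid, and the ATPase ring gave 0.20 with the lid. Medians between classes were thus not always below those within a class. With the means of the array sets removed too, the median over all pairs was 0.26, and 0.41 and 0.43 within the alpha and beta rings. The closest pairs were Psma5 with Psmd4 (0.78), Psmd4 with Psmd11 (0.77), Psma7 with Psmd1 (0.75) and Psmb1 with Psmb3 (0.75), of which Psmd4 and Psmd11 also differed between the array sets. Psmc6 stood out of step, with a median correlation of -0.09 with the other genes. These correlations describe arrays that share scaling, week and array set and that come in pairs from the same animals. They carry no test.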

How the data were processed

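Liver RNA of 62 samples was hybridised to Affymetrix arrays, and the deposited values are MAS5 signal intensities on a linear scale, computed with MAS5 5.0 per the submitters' processing notes. No source used here states the array model or the scaling target. Groups, doses and animals came from the labels. Probe sets were named from the platform's annotation: 20826 of 31099 had 1 gene symbol, 436 several, 9780 none and 57 were controls. Probe sets with none or several were left out.

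Signals were taken as log2(signal + 25). Dim probe sets, those with a signal of at least 100 on fewer than 4 arrays of a fit, were dropped, and the probe set with the highest mean over all arrays stood for a gene. Each comparison was a two-sided contrast of group means fitted with limma 3.58.1 in R 4.3.3, with a mean-dependent prior variance. Genes passed at a p of 0.05 after Benjamini-Hochberg adjustment over the whole table. Comparisons within a week used the 31 arrays of that week (10488 genes at 5w, 10538 at 10w), and those between weeks all 62 (10903 genes). The steps were run on simulated data with independent noise, without array sets or paired animals. The differences put in were larger than any called for a proteasome gene, so that run does not bear on small differences. The number of arrays limits the precision.

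The members, gene lists and tests were chosen with earlier results of these data known. Values on every array are given for members past the threshold and for the 2 members of each structural class with the smallest p for phenobarbital at 10w. Of the pathway list, up to 4 genes with the smallest p per comparison are named. For phenobarbital at 10w the immunoproteasome subunits and the regulators are named as well, outside that rule. The lists were 37 pathway genes and markers of hepatocytes, Kupffer cells, lymphocytes, stellate cells, endothelial cells, bile duct cells and the cell cycle.

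Per the series' design text, each animal gave the samples of both weeks. As a check, residuals of the 31 pairs with the same treatment and number correlated at 0.211 to 0.394, against a median of -0.0954 for 108 pairs with other numbers. For the 40 of these in the same array set the median was 0.0217. The animal was therefore also fitted as a block. Within a week, equal numbers name different animals. The alternatives tried were quantile normalization, no filter on dim probe sets, no offset, every probe set of a gene, the replicate number or animal as a block, the array set as a block (sets read from the data themselves), each array set alone, only the groups compared, and leaving out each array in turn. Promoter windows are those of RefSeq on GRCr8. Raw intensity files were not used here.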

Additional observations from a re-analysis of the deposited data

Results flagged for a closer look

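Of 112 groups of values tested for a sample far from the others by Dixon's criterion, 7 held one, and chance gives about 1 in 20. Psmd5 read 2428 in MC/PB animal 4 at 5w, where the other 3 animals lay between 2107 and 2123, and 1898 in APAP/PB animal 2 at 10w, where the others lay between 2195 and 2249. Psmd8 read 4893 in TAA/PB animal 1 at 5w, above the other 4 animals at 3724 to 3996. Psmd9 read 1530 in MC/water animal 1 at 5w, above the others at 1205 to 1232, and without that animal the phenobarbital difference of Psmd9 at 5w was 0.52 in place of 0.44.

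The median over the 33 genes was -0.15 in DEN30/PB animal 1 at 5w, below the others at -0.01 to 0.01. It was 0.13 in APAP/PB animal 3 at 5w, above the others at 0.01 to 0.03, and 0.13 in DEN3/PB animal 2 at 10w, above the others at 0.01 to 0.04.

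The change of Psmd5 between the weeks went up in all 5 DEN3/PB animals (mean 0.13) and down in all 4 APAP/PB animals (mean -0.15), 0.29 apart. It also went down in all 4 MC/water animals (mean -0.31), 0.44 from DEN3/PB. These pairs of changes were chosen for their opposite signs, and the differences were not tested.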

How the results depend on the processing

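No called value, read on the probe set that stands for its gene, changed direction under any alternative. The dim second probe set of Psmd9 read 0.37 in APAP/PB between the weeks, where the called value was -0.39. The counts of genes called for phenobarbital (1 of 33 at 5w and 2 at 10w) were the same with quantile normalization, no filter, no offset, every probe set tested, the replicate block and the array set as a block. At 5w the count was 0 when only the 2 groups were fitted and 0 within either array set, and at 10w it was 0 within either set. Leaving out 1 array gave 0 to 1 at 5w and 1 to 2 at 10w. The share of all genes passing under these alternatives is not given here. No gene was called in an initiator comparison, or in a difference of an effect between weeks, under any alternative.

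The counts for the change between weeks depended most on the setting. With the replicate block (the animal) they were 1 in MC/water, 1 in MC/PB, 7 in DEN3/PB, 2 in DEN30/PB, 5 in TAA/PB, 12 in MP/PB and 4 in APAP/PB, against 0, 0, 2, 0, 1, 3 and 1 without it, and every gene called without the block was among those called with it. For the settings that follow, the share of all genes passing is not given here, so the counts cannot be set against the whole table. With the array set as a block, DEN3/PB gave 4 and MP/PB 6. Within either array set DEN3/PB, TAA/PB, MP/PB and APAP/PB gave 0. With only the groups compared DEN3/PB gave 1, and TAA/PB, MP/PB and APAP/PB gave 0. APAP/PB gave 0 with no filter, 0 with all probe sets and 2 with quantile normalization. Leaving out 1 array gave 1 to 3 in DEN3/PB, 0 to 1 in DEN30/PB, 0 to 2 in TAA/PB, 0 to 2 in MP/PB and 0 to 1 in APAP/PB. Fits within a set hold 2 or 3 arrays a group, so fewer arrays stand behind those counts, and the cause of the other shifts was not tested. The replicate number as a block within a week changed no count. Among the 12 comparisons within a week, all 4 equal-numbered pairs correlated above 0.1 in 4 (DEN3 and DEN30 at 5w, MP and APAP at 10w).

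All 33 genes read at least 100 on every array, so none was dropped as dim. Whether signal level limited the counts was not tested. The standard errors that 4 or 5 animals a group gave were near the size of the smaller differences, and such differences were not detectable here one gene at a time.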
